A study of Sus scrofa with 8 samples.

Results

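The retinas of pigs injected with AAV were compared between week 4 and week 2, to describe which transcripts appeared, faded or persisted after the injection. Of the 8 retinas of 6 animals profiled by single-nucleus RNA sequencing (snRNAseq), 4 retinas of 3 animals had received AAV. The AAV week 2 group was the left and the right eye of 1 animal (7221), and the AAV week 4 group was the left eye of each of 2 animals (7248 and 7249). The vehicle groups had the same layout, namely animal 7222 with both eyes at week 2, and animals 7250 and 7251 with a left eye each at week 4. All animals were female Yucatan minipigs a few months old. Both eyes of each animal were injected into the vitreous with AAV2.7m8/CAG-GFP at 5e11 vector genomes (vg) per eye or with vehicle, after an earlier intravitreal dose of Vitrase (hyaluronidase), and every animal was given methylprednisolone weekly. AAV2.7m8 is an engineered variant of the AAV2 capsid that reaches inner retinal cells from the vitreous, and CAG is a promoter active in most cell types, here driving green fluorescent protein.

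The layout sets what the comparison can carry. AAV week 2 was 1 animal, so the spread between animals came from the pairs of animals at week 4, and the week 2 animals were assumed to vary alike. The labels give each group a batch of its own, so batch, animal and week cannot be told apart, and the vehicle log2 ratio of week 4 over week 2 is given as a reference beside AAV ratios printed with an error, unless a vehicle group held 3 UMIs or fewer of the gene. Per the study's methods, some animals of the later time point were killed early because inflammation was detected. No such reason is given there for the earlier time point. The labels do not say on which day animals 7248 and 7249 were killed.

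UMIs (unique molecular identifiers, each counting 1 captured transcript) were summed over all barcodes of a retina, giving 121544835 to 173614051 UMIs from 40389 to 55012 barcodes per retina. ARR3, the arrestin of cones, was at 444 to 725 CPM (its UMIs per 1000000 UMIs of a retina) in the 8 retinas. A lane of 1 retina shared 18 to 62 barcode sequences with a lane of another, at most 0.514% of the smaller lane. In sums over a retina, fewer cells of a type and less RNA per cell cannot be told apart. Mitochondrial transcripts, which reach nuclei preparations with cytoplasm, took 0.209% and 0.144% of UMIs at AAV week 4, against 0.580% and 0.494% at AAV week 2 and 0.542% to 0.880% in vehicle retinas.

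As background, type I interferons released when a cell senses viral nucleic acid act through JAK kinases on transcription factors that bind the interferon-stimulated response element (ISRE) upstream of antiviral genes. Interferon-gamma, made mainly by T and NK cells, induces CXCL9, CXCL10 and, through CIITA, the MHC class II genes. The healthy retina holds resident microglia and few other leukocytes, and its Müller glia span all layers and support the neurons.

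Between the weeks, 944 of 28080 genes tested were higher in AAV week 4 than in AAV week 2 (3.36%) and 739 were lower (2.63%). A gene counted here passed edgeR's quasi-likelihood test at an adjusted p under 0.05, and both week 4 retinas lay on the same side of both week 2 eyes. By the same rule 0 genes (0%) were called between the vehicle groups, where 979 genes had an unadjusted p under 0.05, and DESeq2's test called 13 higher and 14 lower. Among the 26322 genes with at least 100 UMIs, 12.4% changed 2-fold or more between the AAV groups and 2.23% between the vehicle groups. Over these genes the log2 week ratio had an SD of 0.88 in AAV and 0.39 in vehicle. Of the 1683 called genes, 42 had a vehicle ratio of 2-fold or more in the same direction. The balance of higher and lower AAV calls depended on the fit, at 1970 and 1801 with DESeq2's test. With the 8 retinas as libraries it was 4687 and 5059.

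**Figure D1:**
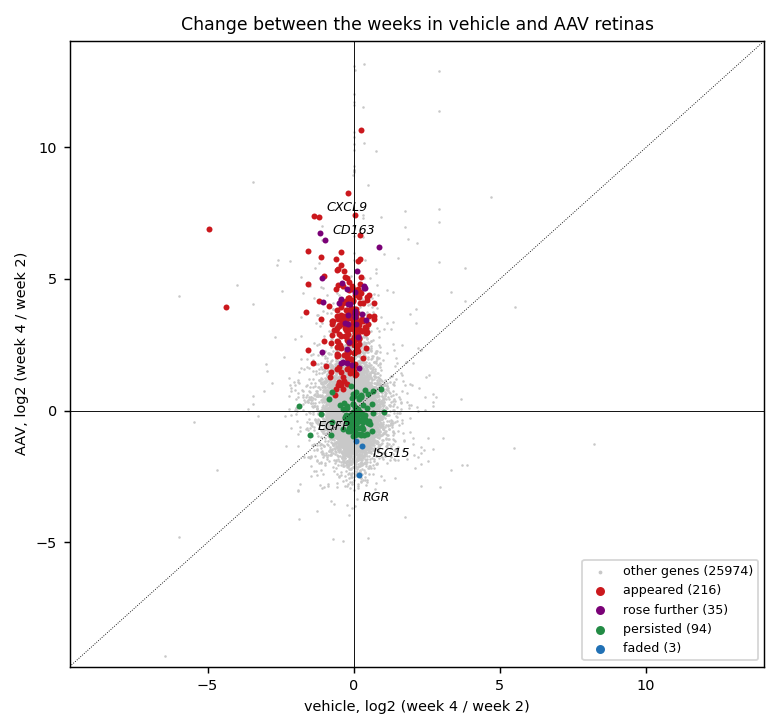
Each point is a gene with at least 100 UMIs, plotted by the log2 ratio of week 4 over week 2 in vehicle retinas (horizontal) and in AAV retinas (vertical), coloured by class, with the dotted line marking equal ratios. The vertical spread (SD 0.88) exceeded the horizontal spread (SD 0.39), and genes that appeared had a median of 3.24 on the vertical and −0.16 on the horizontal axis, with some at a small AAV ratio (FMNL3 0.61) or a vehicle ratio away from 0 (IDO1 −1.62).

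The week ratio itself differed between AAV and vehicle, by edgeR's test of the difference, in the positive direction for 255 genes (0.908%) and in the negative direction for 48 (0.171%). The balance of directions depended on the fit. It was 1055 and 708 genes with DESeq2's test, and 3097 and 3076 with the 8 retinas as libraries. Of the 944 genes called higher 252 also passed edgeR's difference, and of the 739 called lower 46 did, so a call between the AAV weeks alone does not show a difference from vehicle. The 4 descriptions were fixed from these tests. A gene appeared when it was called higher in AAV week 4, the difference from the vehicle ratio passed, and at week 2 it lay under 2-fold above vehicle. It rose further when it met the same tests from 2-fold or more above vehicle at week 2, where no test against vehicle was asked for. It faded when it passed the test against vehicle at week 2 and then came down by both tests. It persisted when it passed against vehicle at both weeks, at 2-fold or more, with under 2-fold change between them. There were 217 genes that appeared (0.773%), 35 that rose further (0.125%), 94 that persisted (0.335%) and 3 that faded. Of the 217 and the 94, 174 and 74 have a symbol, and the others are listed by identifier only. Leaving out a week 4 animal left the pair of the other treatment alone to give the spread between animals. Counts of genes that appeared are therefore not compared across such fits.

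**Figure D2:**
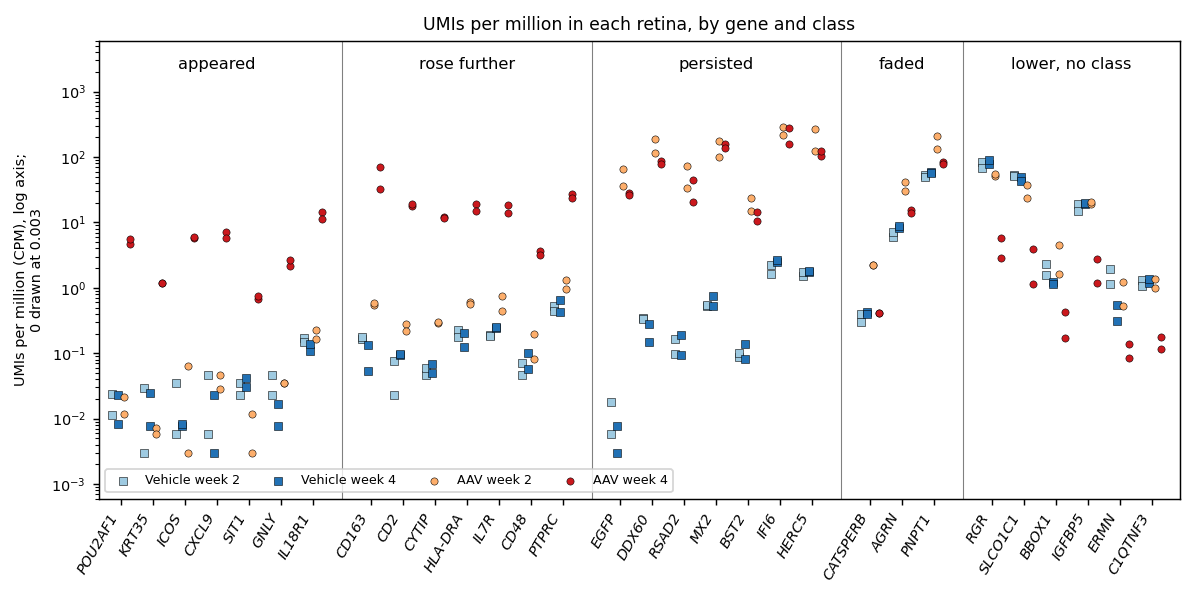
CPM (log axis, 0 drawn at 0.003) in each of the 8 retinas for the leading named genes of each class, with squares for vehicle and circles for AAV retinas and a colour for each group. Genes that appeared or rose further were high in the 2 AAV week 4 retinas, persisted genes were high in all 4 AAV retinas, and RGR and its neighbours were low in the AAV week 4 retinas.

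Most antiviral genes persisted. At week 2, 136 genes (0.484%) were higher in AAV than in vehicle retinas and 8 (0.0285%) were lower by the test. At week 4, 1954 (6.96%) were higher and 1567 were lower. Of the 136, 131 passed again at week 4 and 94 met the rule for persisting. Their median log2 AAV week ratio was −0.26, against −0.02 over all genes tested. The comparisons with vehicle share the AAV retinas with the week ratio, so their values are given side by side and not as separate support.

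Ranked by height over vehicle at both weeks, the leading gene after the transgene was DDX60, an antiviral helicase (chromosome 14, 21077491 to 21163563, Sscrofa11.1). It was at 115 and 187 CPM in the left and right eye at AAV week 2 and at 85.5 and 78.0 CPM in animals 7248 and 7249 at week 4. The 4 vehicle retinas held 0.147 to 0.351 CPM. All AAV retinas thus lay far above all vehicle retinas, and the week 4 retinas lay under the week 2 eyes without passing the test (log2 ratio −0.93 ± 0.20 SE, adjusted p = 0.0546, vehicle −0.78). RSAD2, which encodes viperin, was at 34 and 73 CPM at week 2 and at 20.8 and 44.8 at week 4, and the groups overlapped (−0.75 ± 0.45, adjusted p = 0.336, vehicle 0.01). MX2, an interferon-induced GTPase that blocks viral nuclear entry, was at 101 and 174 CPM and then at 158 and 138 (0.06 ± 0.17, adjusted p = 0.862, vehicle 0.13), against 0.524 to 0.740 CPM in vehicle. Leukocyte barcodes, defined below with the leukocyte transcripts, held 52.5% of the AAV week 4 UMIs of MX2. Without them the log2 ratio of MX2 was −0.79, so its level outside these barcodes was not steady. IFI6 was at 285 and 218 CPM and then at 161 and 279, and BST2, the tether of budding virions, at 14.9 and 23.4 and then at 14.4 and 10.7. None of RSAD2, MX2, IFI6 and BST2 passed between the weeks (adjusted p of IFI6 0.761 and of BST2 0.159), which does not show that their levels were equal.

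Of the list of 50 tested interferon-stimulated antiviral genes, 37 persisted. The list passed in the AAV week ratio for 3 genes upward and 8 downward, beside 3.36% and 2.63% of all genes tested. Of its 50 ratios 40 were negative, with a median log2 ratio of −0.35 (vehicle 0.05, all genes −0.02). Its median log2 ratio of AAV over vehicle was 4.56 at week 2 and 3.98 at week 4. The summed level was 4403 and 5941 CPM in the week 2 eyes and 4027 and 4619 CPM in the week 4 retinas, so that the groups overlapped, and it was 710 to 767 CPM in vehicle.

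The eyes of the week 2 animal were not alike in these genes. The right eye exceeded the left in 48 of the 50 listed genes, with a median ratio of 1.44, while over all genes with at least 100 UMIs the median ratio was 0.989 and between the eyes of the vehicle animal it was 0.993 for the list. EGFP moved with them, at 65.1 CPM in the right and 35.5 CPM in the left eye. Without the right eye the list had 2 genes called lower and a median log2 ratio of −0.05, and without the left eye it had 18 and −0.58. The number of antiviral genes called lower thus depended on the week 2 eye used.

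Sequence upstream of these genes is shown for a short element that the rule did not use. The 250 bases before the RefSeq gene start were searched in 13412 tested genes for GAAANNGAAA on either strand, the core of the ISRE. It stood in 14 of 65 windows of persisted genes (21.5%), in 8 of 160 of genes that appeared (5%), in 12 of 446 of genes called lower (2.69%) and in 2.55% of all windows. Among all genes higher at week 2, which include the persisted genes, it stood in 18 of 90 windows (20%). Among genes that rose further it stood in 2 of 21 (9.52%). The windows of 3 genes that stayed above vehicle at both weeks follow, then those of CXCL10 and CXCL9, in genomic build Sscrofa11.1, read 5′ to 3′ on the strand of the gene up to the base before its start, with matches in capitals. They are BST2 (chr2:60305056-60305305, plus strand), RSAD2 (chr3:128897810-128898059, minus strand), ISG15 (chr6:63362951-63363200, plus strand), CXCL10 (chr8:71695949-71696198, minus strand) and CXCL9 (chr8:71670237-71670486, minus strand), chosen after their values were seen.
BST2: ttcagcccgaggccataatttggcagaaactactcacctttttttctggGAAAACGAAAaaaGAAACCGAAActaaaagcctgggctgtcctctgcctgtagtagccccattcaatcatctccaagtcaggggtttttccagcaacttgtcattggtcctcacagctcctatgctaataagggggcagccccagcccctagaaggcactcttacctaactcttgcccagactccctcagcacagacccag
RSAD2: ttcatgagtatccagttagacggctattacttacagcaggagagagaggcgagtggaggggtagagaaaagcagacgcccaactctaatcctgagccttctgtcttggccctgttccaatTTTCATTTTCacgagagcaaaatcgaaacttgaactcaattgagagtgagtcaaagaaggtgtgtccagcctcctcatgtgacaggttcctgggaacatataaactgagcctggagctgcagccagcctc
ISG15: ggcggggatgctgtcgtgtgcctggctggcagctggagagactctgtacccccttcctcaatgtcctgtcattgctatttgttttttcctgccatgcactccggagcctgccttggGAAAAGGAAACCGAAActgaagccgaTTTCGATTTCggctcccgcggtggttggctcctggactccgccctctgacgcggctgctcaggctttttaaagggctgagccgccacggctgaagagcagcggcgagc
CXCL10: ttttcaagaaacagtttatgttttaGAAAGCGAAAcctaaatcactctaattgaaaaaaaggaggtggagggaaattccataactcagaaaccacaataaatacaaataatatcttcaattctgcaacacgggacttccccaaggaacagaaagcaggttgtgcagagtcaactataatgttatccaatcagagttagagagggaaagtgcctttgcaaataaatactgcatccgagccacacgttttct
CXCL9: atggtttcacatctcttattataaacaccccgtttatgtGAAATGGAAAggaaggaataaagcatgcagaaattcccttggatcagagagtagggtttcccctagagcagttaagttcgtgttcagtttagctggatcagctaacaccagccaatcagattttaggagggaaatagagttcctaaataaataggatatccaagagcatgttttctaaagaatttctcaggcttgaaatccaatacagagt

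ISG15 and BST2 held 3 and 2 matches, those of ISG15 overlapping in part, and RSAD2, CXCL10 and CXCL9 held 1 each. DDX60, PARP14 and EPSTI1, which persisted too, held none in this window. The interferon-gamma activated site, TTCNNNGAA, stood in 4 of 65 windows of persisted genes (6.15%), in 7 of 160 that appeared (4.38%) and in 5.68% of all, and the kappaB motif in 16.9%, 15% and 13.6%. A match describes the letters of a window and does not show binding.

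**Figure D3:**
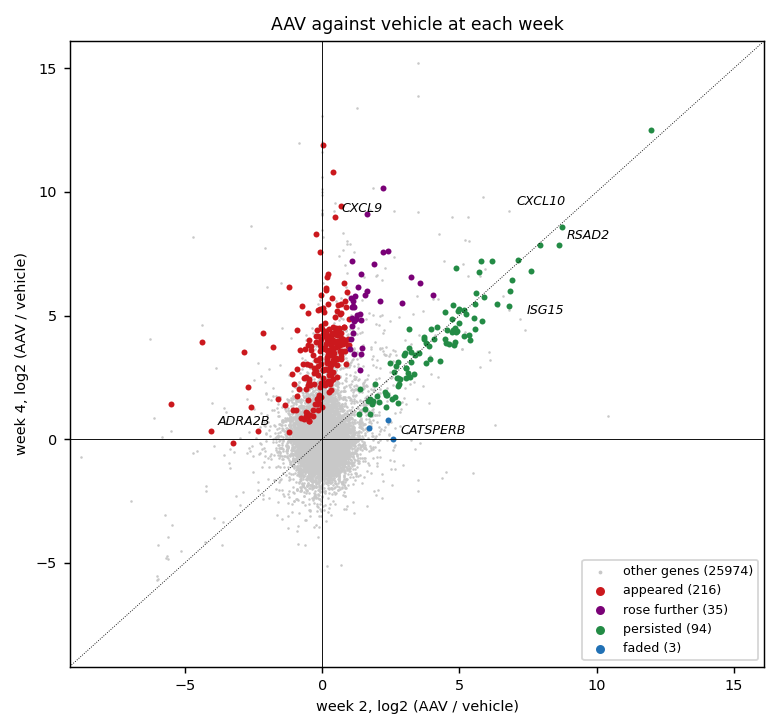
Each point is a gene with at least 100 UMIs, plotted by the log2 ratio of AAV over vehicle at week 2 (horizontal) and at week 4 (vertical), coloured by class, with the dotted line marking equal ratios. RSAD2 lay near the line, ISG15 below it, CXCL10 above it, and CXCL9 stood high at week 4 with a ratio of 0.46 at week 2. The genes that appeared had a median of 0.14 at week 2 and 3.58 at week 4, and some lay below vehicle at week 2 (ADRA2B −4.05).

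Some of these genes moved between the AAV weeks, in both directions. Of the 136 genes higher at week 2, 24 were called lower in AAV week 4 than in AAV week 2 and 17 higher, beside 2.63% and 3.36% of all genes tested. Of the 24, 22 still passed against vehicle at week 4, 8 also met the rule for persisting, since they fell by less than 2-fold, and 3 passed the difference from vehicle. Of the 17, 0 were called without the barcodes of 7 leukocyte genes that are defined with the leukocyte transcripts. Their median log2 ratio was then 0.85, against 1.62 with all barcodes, and 16 of the 17 stayed positive. Of the 24, 14 were still called. ISG15, the ubiquitin-like modifier that is conjugated to proteins in the antiviral response, was at 79.8 and 117 CPM at week 2 and at 21.0 and 30.5 CPM at week 4. Vehicle retinas held 0.599 to 0.972 CPM. ISG15 thus fell by 1.97 on the log2 scale (SE 0.25, adjusted p = 0.015, vehicle 0.39) and remained above every vehicle retina. The difference from vehicle did not pass (adjusted p = 0.0673), and the drop passed with either week 2 eye left out.

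RIGI, the cytosolic sensor of viral RNA, was at 117 and 223 CPM and then at 55.0 and 56.0 CPM, a log2 ratio of −1.67 ± 0.15 (adjusted p = 0.00593, vehicle −0.21). MX1, another antiviral GTPase, was at 230 and 317 CPM and then at 139 and 152, with −0.94 ± 0.16 (adjusted p = 0.0299, vehicle 0.04), and it is 1 of the 8 that also persisted. IFIT2, which binds foreign RNA, was at 10.7 and 33.5 CPM and then at 8.49 and 9.86. The calls of MX1 and IFIT2 rested on the right eye, since without it their log2 ratios were −0.64 (adjusted p = 0.0711) and −0.19 (adjusted p = 0.613). FOXS1 and CDHR4, which are not of the antiviral list, were at 32.5 and 65.5, and 31.3 and 64.2 CPM at week 2 and fell by 1.01 and 1.31 on the log2 scale. They were at 0.555 to 0.609 and 0.980 to 1.22 CPM in vehicle, and without the right eye neither was called (−0.34 and −0.62, adjusted p = 0.212 and 0.11). For RIGI, MX1, IFIT2, FOXS1 and CDHR4 the difference from vehicle did not pass (adjusted p = 0.0517 to 0.14). MX1, IFIT2, FOXS1 and CDHR4 were chosen after their values were seen.

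The 3 genes that faded came down by the difference from vehicle as well. CATSPERB, a subunit of the sperm calcium channel complex, was at 2.20 and 2.23 CPM at AAV week 2 and at 0.411 and 0.417 CPM at week 4, within the vehicle range of 0.295 to 0.432. Its log2 ratio was −2.43 ± 0.25 (adjusted p = 0.00896, vehicle 0.18). AGRN, which encodes agrin of basement membranes, was at 30.6 and 42.2 CPM and then at 15.4 and 13.9 CPM, against 6.02 to 8.80 CPM in vehicle (−1.34 ± 0.14, adjusted p = 0.0087, vehicle 0.30). PNPT1, a mitochondrial RNA exonuclease, was at 133 and 212 CPM and then at 84.2 and 77.2 CPM, against 50.2 to 59.7 in vehicle (−1.14 ± 0.11, adjusted p = 0.00787, vehicle 0.09). Only CATSPERB returned to the vehicle level, with AGRN and PNPT1 still higher than vehicle at week 4 by the test. The AAV week 2 eyes enter both tests of this class, so a chance high value there would favour it, and with left eyes alone 0 genes met the rule.

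EGFP, the transgene, was at 35.5 and 65.1 CPM at AAV week 2 and at 27.7 and 26.7 CPM at AAV week 4, and at 0 to 0.0177 CPM in vehicle retinas. It persisted by the rule, with a log2 week ratio of −0.94 ± 0.17 (adjusted p = 0.0369). Vehicle eyes received no transgene, so its passing against vehicle was given by the design. Without EGFP 93 genes persisted. The fall rested on the right eye, since without it the ratio was −0.36 (adjusted p = 0.268).

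Leukocyte transcripts appeared by week 4. PTPRC, which encodes CD45 of all leukocytes, was at 1.33 and 0.968 CPM at AAV week 2 and at 27.6 and 23.7 CPM at AAV week 4, against 0.420 to 0.640 CPM in vehicle. By the rule it rose further, with a log2 ratio of 4.49 ± 0.31 (adjusted p = 0.00431) beside 0.04 in vehicle. At week 2, however, 0 of the 8 tested pan-leukocyte genes passed against vehicle. Of the 35 genes that rose further, 5 did. All 8 tested pan-leukocyte genes were called higher and passed the difference from vehicle, beside 3.36% and 0.908% of all genes, with a median of 3.49. Without the barcodes defined next 3 of the 5 still tested were called, with a median of 2.42. Barcodes with a UMI of PTPRC, CD53, IKZF1, CD3E, CD2, MS4A1 or CD79B made up 10.9% and 9.65% of barcodes at AAV week 4, against 0.904% and 0.633% at AAV week 2 and 0.422% to 0.516% in vehicle retinas. They held 9.53% and 8.93% of all UMIs at AAV week 4. These 7 genes were chosen after seeing the data, since JCHAIN, one more leukocyte gene of the plan, was at 20.5 to 22.9 CPM in vehicle retinas as well. The 7 are themselves leukocyte genes, so leaving out their barcodes takes other leukocyte transcripts with them. Lower values of leukocyte and microglial genes without these barcodes follow from that choice and are no separate support.

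These barcodes held a median of 74.2% of a gene's AAV week 4 UMIs among genes that appeared and 80% among genes that rose further, against 24.3% among persisted genes, 6.07% among genes called lower and 8.64% over all genes tested. With the barcodes left out, 212 of 214 appeared genes still tested kept a positive AAV week ratio. The rule had chosen them on a positive ratio in these same retinas, so the signs are no separate support. The median log2 ratio of the appeared genes was then 2.08, against 3.24 with all barcodes. Over all genes the number called between the AAV weeks fell from 1683 to 272, so calls lost in this way are given with the medians. Of the 214, 73 were still called higher, but 0 genes passed the difference from vehicle by edgeR, so 0 appeared. In that test 4481 of 27748 genes had an unadjusted p under 0.05, against 5312 of 28080 with all barcodes. The 94 persisted genes were at a median of −0.51 without these barcodes and −0.20 with them.

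Among T and NK cell genes, CTLA4, ICOS, GZMA and GZMH had the largest ratios. CTLA4, an inhibitory receptor of activated and regulatory T cells, had 0 UMIs in both AAV week 2 eyes and 593 UMIs at AAV week 4 (1.57 and 2.09 CPM), at least 191-fold higher against 3 counts over the group. ICOS, a co-stimulatory receptor, was at 0 and 0.0638 CPM and then at 5.82 and 6.07 CPM (log2 ratio 7.37 ± 0.37, adjusted p = 0.00278). CD3E of the T cell receptor complex was at 0.467 and 0.371 CPM and then at 12.1 and 9.90 CPM (4.71 ± 0.28, adjusted p = 0.00301, vehicle −0.36). In each of these genes both week 4 retinas lay above all other retinas, but for CTLA4, GZMA and GZMH the difference from vehicle did not pass (adjusted p = 0.145, 0.134 and 0.0897). The cytotoxic granule gene GNLY was at 0.0354 and 0.0348 CPM and then at 2.12 and 2.63 CPM, and CD8A, the marker of cytotoxic T cells, at 0.177 and 0.151 and then at 3.67 and 3.16 CPM. CD4, carried by helper T cells and also by myeloid cells, was at 2.59 and 2.19 CPM and then at 7.26 and 6.68 (CD4, whose difference from vehicle did not pass at adjusted p = 0.105, and CD8A were chosen after their values were seen). Of 32 tested genes of the list, 25 were called higher and 0 lower (3.36% and 2.63% of all genes), with a median log2 ratio of 3.41 in AAV and 0.01 in vehicle. The difference from vehicle passed for 13 of the 32, beside 0.908% of all genes in the positive direction. Without the barcodes of the 7 genes the median was 1.28 with 5 called.

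B and plasma cell transcripts rose too. IGHM, the heavy chain of IgM, was at 0.0637 and 0.0174 CPM at AAV week 2 and at 24.1 and 48.4 CPM at AAV week 4 (9.87 ± 0.77, adjusted p = 0.00477, vehicle 0.78). Vehicle retinas held 0.0236 to 0.0658 CPM. POU2AF1, the B cell coactivator OBF1 (chromosome 9, 39121422 to 39144636), was at 0.0212 and 0.0116 CPM and then at 4.76 and 5.57 CPM, and IRF4, a regulator of plasma cell development, at 0.0142 and 0.0174 and then at 6.17 and 7.33. POU2AF1 had the largest ratio of named genes that appeared (8.28 ± 0.51, adjusted p = 0.00301, vehicle −0.21). MS4A1, which encodes CD20, had 3 UMIs at AAV week 2 and 429 at AAV week 4, a ratio of 139 (95% exact interval 47.1 to 674, counting error only). IGHM, IRF4 and MS4A1 were called higher but the difference from vehicle did not pass, with adjusted p = 0.0763, 0.0745 and 0.0743, where vehicle retinas held few or no UMIs. In all 13 of 20 listed genes were called higher and 0 lower (3.36% and 2.63% of all genes), with a median of 2.40. Without the barcodes of the 7 genes 4 of 17 were called, with a median of 0.97. The difference from vehicle passed for 5 of the 20, beside 0.908% of all genes in the positive direction.

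JCHAIN, the joining chain of secreted antibody, did not pass, at 23.3 and 29.3 CPM and then 34.6 and 39.0 CPM (0.46 ± 0.15, adjusted p = 0.126, vehicle −0.01). Of the AAV week 4 UMIs of IGHM, 37.1% lay in barcodes of the 7 genes, and its log2 ratio without those barcodes was 10.12.

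Genes of antigen presentation rose as well. CIITA, the master regulator of MHC class II, was at 1.64 and 1.66 CPM and then at 29.3 and 16.9 CPM (3.79 ± 0.37, adjusted p = 0.00787, vehicle 0.03). CD74, the invariant chain, was at 3.37 and 3.51 CPM and then at 41.6 and 32.8 CPM (3.42 ± 0.25, adjusted p = 0.00477, vehicle 0.06). All 6 tested MHC class II genes were called higher, with a median of 3.24 beside −0.01 in vehicle, and 2 of the 6 passed the difference from vehicle. Of all genes 3.36% and 0.908% did so. Without the barcodes of the 7 genes 1 of the 6 was called, with a median of 2.37. HLA-DRA, as the files name it, rose from 0.609 and 0.557 CPM to 19 and 14.9 CPM. Of the 25 genes of the interferon-gamma and antigen presentation list, 10 were higher than vehicle at week 2 and 22 at week 4, beside 0.484% and 6.96% of all genes tested, and 5 were called higher between the AAV weeks. B2M, the light chain of MHC class I, was at 42.8 and 46.5 CPM and then at 65.6 and 74.6 CPM, and NLRC5, the class I transactivator, at 52.5 and 115 and then at 111 and 96.5, against 1.60 to 2.66 and 2.45 to 3.14 CPM in vehicle. TAP1, the peptide transporter, was at 23.6 and 32.7 CPM and then at 44.8 and 39.0 CPM. None of the 3 passed between the AAV groups (adjusted p = 0.0954, 0.392 and 0.176), and all 3 persisted (they were chosen after their values were seen).

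Myeloid transcripts rose as well. CD163, a scavenger receptor of macrophages (chromosome 5, 63300200 to 63334497), was at 0.545 and 0.586 CPM at AAV week 2 and at 70.5 and 32.9 CPM at AAV week 4, and at 0.0540 to 0.177 CPM in vehicle (6.49 ± 0.62, adjusted p = 0.00762, vehicle −0.98). CCR2, the receptor that guides monocytes out of the blood, had 2 UMIs at AAV week 2 and 358 at AAV week 4, a ratio of 173 (95% exact interval 47.6 to 1437), and its difference from vehicle did not pass (adjusted p = 0.227). F13A1 was at 0.878 and 1.12 CPM and then at 17.0 and 12.6 CPM, with a log2 ratio of 3.86 in AAV and of 2.12 in vehicle, a difference that did not pass (adjusted p = 0.0888). Of the list of 18 macrophage and dendritic cell genes 11 were called higher and 0 lower (3.36% and 2.63% of all genes), with a median of 2.66. Without the barcodes of the 7 genes 3 of 17 were called, with a median of 1.53. The difference from vehicle passed for 6 of the 18, beside 0.908% of all genes in the positive direction.

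Microglial genes did not all move. The complement C1q genes rose, C1QA from 0.262 and 0.157 CPM to 4.28 and 2.75 CPM, C1QB from 1.03 and 0.487 to 9.2 and 6.59, and so did the adaptor TYROBP, from 0.184 and 0.139 to 2.60 and 1.86. P2RY12, the purinergic receptor of homeostatic microglia, was at 15.1 and 11.5 CPM and then at 23.9 and 22.6 CPM (0.81 ± 0.15, adjusted p = 0.0401, vehicle 0.01), and its ratio was −0.11 without the barcodes of the 7 genes. SALL1, a microglial identity factor, was at 0.559 and 0.273 CPM and then at 0.355 and 0.239 (−0.45 ± 0.34, adjusted p = 0.445, vehicle 0.17), and CX3CR1 at 0.991 and 0.510 and then at 2.03 and 1.13 (adjusted p = 0.143), both chosen after their values were seen. Of 16 listed genes 10 were called higher and 0 lower (3.36% and 2.63% of all genes), with a median of 1.63 (vehicle 0.15). Without the barcodes of the 7 genes 4 were called, with a median of 0.69. With all barcodes the difference from vehicle passed for 4 of the 16, beside 0.908% of all genes in the positive direction.

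**Figure D4:**
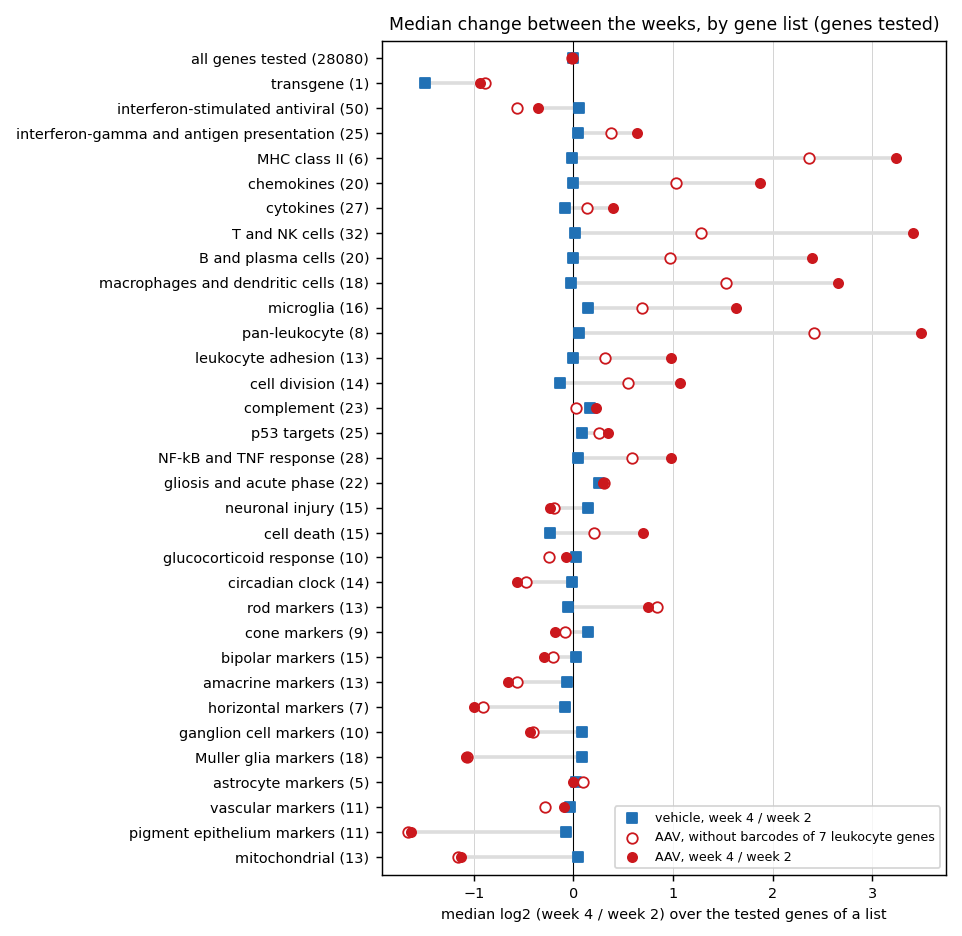
Median log2 ratio of week 4 over week 2 over the tested genes of each list (number in parentheses), in AAV retinas (filled circles), in AAV retinas without barcodes holding a UMI of 7 leukocyte genes (open circles) and in vehicle retinas (squares). Leukocyte, MHC class II and chemokine lists moved up in AAV and less so without those barcodes, while Müller glia, pigment epithelium and mitochondrial lists moved down in AAV with or without them.

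Among secreted signals, CXCL9 (chromosome 8, 71665541 to 71670236) showed the largest change. This T cell attractant was at 0.0283 and 0.0464 CPM at AAV week 2 and at 7.07 and 5.80 CPM at AAV week 4, and at 0 to 0.0473 CPM in vehicle (7.36 ± 0.61, adjusted p = 0.0053). CXCL10, a neighbouring gene and a ligand of the same receptor, was already above vehicle at week 2 by the test, at 0.467 and 2.89 CPM, and then at 13.6 and 11.5 CPM (2.79 ± 0.24, adjusted p = 0.0053, vehicle 0.36). CCL2, which attracts monocytes, was at 1.24 and 4.48 CPM and then at 6.65 and 5.26 CPM, so that the weeks did not pass (0.97 ± 0.74, adjusted p = 0.447, vehicle 1.75). Vehicle retinas held 0.0115 to 0.0231 CPM of CXCL10 and 0.00771 to 0.206 CPM of CCL2. CCL3L1 was at 0.0142 and 0.0116 CPM and then at 0.604 and 0.809 CPM (5.72 ± 0.61, adjusted p = 0.0154). The difference from vehicle passed for CXCL9 (adjusted p = 0.0388) and not for CXCL10 and CCL3L1 (adjusted p = 0.16 and 0.198).

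Of 20 tested chemokines 9 were called higher and 0 lower (3.36% and 2.63% of all genes), with a median of 1.87 in AAV and 0 in vehicle. Without the barcodes of the 7 genes 1 of 19 was called, with a median of 1.03. The difference from vehicle passed for 1 of the 20, beside 0.908% of all genes in the positive direction. Of 27 cytokine genes 6 were called higher, and 0 of 23 without those barcodes, with medians of 0.40 and 0.14. Among the 6 were TNF, from 0.0354 and 0.0232 to 0.386 and 0.398 CPM, and IL12B, from 0.0425 and 0.0522 to 0.890 and 0.674 CPM, with differences from vehicle that did not pass (adjusted p = 0.241 and 0.106). IL6 was at 0.198 and 0.302 CPM and then at 0.336 and 0.227 CPM, and the groups overlapped (0.13 ± 0.39, adjusted p = 0.856, vehicle −0.22). IDO1, the tryptophan-degrading enzyme induced by interferon-gamma, was at 0.177 and 0.597 CPM and then at 6.52 and 4.58 CPM (3.75 ± 0.37, adjusted p = 0.00787, vehicle −1.62), with 18.3% of its AAV week 4 UMIs in barcodes of the 7 genes.

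Within the antiviral list 3 genes rose, among them ISG20 and SAMD9. Without the barcodes of the 7 genes 0 were called higher, and the list median was −0.56, against −0.35 with all barcodes. ISG20, an RNA exonuclease, was at 0.680 and 1.35 CPM and then at 7.79 and 7.49 CPM, and SAMD9 at 2.97 and 5.54 and then at 24.0 and 28.9 CPM. The barcodes held 59.0% of the AAV week 4 UMIs of ISG20 and 74.9% of those of SAMD9. For ISG15, RSAD2 and MX2 the shares were 13.3%, 25.3% and 52.5%. The difference of ISG20 from vehicle did not pass (adjusted p = 0.0879). CGAS, the DNA sensor, persisted at 6.12 and 12.6 CPM and then 17.0 and 15.2 CPM, with 70.2% of its AAV week 4 UMIs there and a log2 ratio of 0.72 that was −0.74 without them (chosen after its values were seen).

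Some transcripts that rose lay mostly outside the leukocyte barcodes. KRT35, a hair keratin (chromosome 12, 21166366 to 21171894), had 2 UMIs at AAV week 2 and 389 at AAV week 4, with 1.20 CPM in both week 4 retinas. The ratio was 188 (95% exact interval 51.8 to 1561, counting error only), and 4.11% of its UMIs lay in barcodes of the 7 genes. A2M, the protease inhibitor alpha-2-macroglobulin, was at 29.9 and 32.0 CPM and then at 217 and 209 CPM, against 23.5 to 33.0 CPM in vehicle (2.77 ± 0.19, adjusted p = 0.0042, vehicle 0.20), and 5.43% of its UMIs lay there. Neither differed from vehicle at week 2 by the test, and at week 4 both animals lay above every other retina. The difference of KRT35 from its vehicle ratio passed just under the threshold.

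CEBPD, an acute-phase transcription factor, was at 1.12 and 1.30 CPM and then at 12.3 and 10.9 CPM (3.24 ± 0.25, adjusted p = 0.00477, vehicle 0.18), and it appeared by the rule. PTX3, a secreted pentraxin, was at 12.2 and 9.36 CPM and then at 48.0 and 57.7, and PLK2, a stress-induced kinase, at 5.51 and 4.95 and then at 29.6 and 46.1. Both were called higher, but their difference from the vehicle ratio did not pass (adjusted p = 0.0679 and 0.0588). PADI1, a protein deiminase, was at 2.59 and 1.81 CPM and then at 20.2 and 18.1 CPM (3.14 ± 0.19, adjusted p = 0.00301, vehicle −0.58, chosen after its values were seen). Without the barcodes of the 7 genes the log2 ratios of KRT35, A2M, CEBPD, PTX3, PLK2 and PADI1 were 7.52, 2.87, 3.23, 2.39, 2.94 and 3.25. Each was still called between the AAV weeks, while 0 genes passed the difference from vehicle. GFAP, the intermediate filament of reactive glia, was at 24.4 and 12.8 CPM and then at 51.3 and 21.1 CPM, and the groups overlapped (0.98 ± 0.57, adjusted p = 0.318, vehicle 0.46).

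A few genes met the rule for appearing because they were low in AAV at week 2. ADRA2B, an alpha-2 adrenergic receptor, was at 0.106 and 0.168 CPM at AAV week 2 and at 1.88 and 2.49 CPM at AAV week 4, while vehicle retinas held 1.64 to 2.24 CPM. HTR1F, a serotonin receptor, was at 0.347 and 0.336 CPM and then at 1.51 and 1.48 CPM, against 1.18 to 1.74 in vehicle. AAV week 4 was thus near vehicle for both, and AAV week 2, which was 1 animal, stood apart. Of the 217 genes, 18 lay at a log2 ratio of −1 or lower against vehicle at week 2, and 12 lay under 2-fold above vehicle at week 4 (ADRA2B and HTR1F were chosen after their values were seen).

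Several Müller glial transcripts were lower by week 4. RGR, the retinal G protein-coupled receptor of Müller glia and pigment epithelium (chromosome 14, 85485210 to 85496393), was at 50.9 and 54.5 CPM at AAV week 2 and at 5.79 and 2.87 CPM at AAV week 4, and at 68.3 to 89.2 CPM in vehicle. It had the largest fall of the named genes (−3.63 ± 0.34, adjusted p = 0.00728, beside 0.05 in vehicle). ABCA8, a lipid transporter, was at 54.4 and 42.2 CPM and then at 9.96 and 9.58 CPM (−2.30 ± 0.11, adjusted p = 0.00278, vehicle 0.20), and KCNJ10, the potassium channel Kir4.1, at 7.77 and 8.57 and then at 1.80 and 0.637. RLBP1, the retinaldehyde-binding protein, was at 97.6 and 103 CPM and then at 38.2 and 20.8 CPM, against 116 to 159 in vehicle (−1.79 ± 0.29, adjusted p = 0.0294, vehicle 0.18). In all 4 genes the week 4 retinas lay below every other retina, but for KCNJ10 and RLBP1 the difference from vehicle did not pass (adjusted p = 0.147 and 0.113).

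Of 18 tested Müller glia markers 7 were called lower and 0 higher (2.63% and 3.36% of all genes), with a median of −1.08 (vehicle 0.08). The difference from vehicle passed for 1 of the 18 (ABCA8), beside 0.171% of all genes in the negative direction. Without the barcodes of the 7 genes the median was −1.07 and 1 was called. Their summed level was 1241 and 1313 CPM at AAV week 2, 698 and 375 CPM in animals 7248 and 7249 at week 4, and 1203 to 1506 CPM in vehicle. Animal 7249 was higher than 7248 in 1 of the 18, with a median ratio of 0.570, against 0.951 over all genes with at least 100 UMIs. With animal 7248 left out the median of the 18 was −1.53, and with 7249 left out it was −0.60. SLCO1C1, a thyroid hormone transporter, was at 36.9 and 23.5 and then at 3.91 and 1.13 CPM, IGFBP5 at 18.9 and 20.8 and then at 2.78 and 1.20, and PRELP, a matrix proteoglycan, at 3.89 and 4.81 and then at 0.678 and 0.478. PRELP and RGR, which are not of the list of 18 markers, also passed the difference from vehicle, whereas SLCO1C1 and IGFBP5 did not (adjusted p = 0.136 and 0.0679).

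Pigment epithelium markers had a median of −1.63 (vehicle −0.08), with 4 of 11 called lower and 1 higher, beside 2.63% and 3.36% of all genes. The number called lower was 1 without the right eye of AAV week 2 (median −1.16), and 6 without the left eye (median −1.82). The median stayed as low without the barcodes of the 7 genes, at −1.67, with 0 called lower. RPE65, the defining isomerase, did not pass at 80.2 and 148 CPM and then 40.9 and 16.1 CPM (vehicle week ratio −0.99). Mitochondrial transcripts were lower too, with 7 of 13 called and a median of −1.13 (vehicle 0.05), and 1 called without the barcodes of the 7 genes at a median of −1.15. In barcodes of at most 0.5% mitochondrial UMIs, a limit set on these same transcripts, the median turned to 0.19 with 4 called lower. COX1 was at 1085 and 959 CPM and then at 346 and 235 CPM. GAPDH, whose mature message is largely cytoplasmic, was at 87.4 and 93.1 CPM and then at 47.8 and 45 CPM (−0.97 ± 0.11, adjusted p = 0.0103, vehicle 0.17). NEFL, the neurofilament light chain of ganglion cells, was at 54.7 and 49.8 CPM and then at 19.4 and 18.2 CPM (−1.47 ± 0.13, adjusted p = 0.0061, vehicle −0.28). The difference from vehicle did not pass for COX1 and NEFL (adjusted p = 0.0879 and 0.0598). GAPDH was chosen after its values were seen. The mitochondrial share of UMIs moved with these falls. In barcodes with at most 0.5% mitochondrial UMIs the Müller median was −1.01 with 6 called lower, and the part of cytoplasmic RNA in the other falls was not tested.

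Apart from rods, the neuronal lists had negative medians and few calls, beside 2.63% of all genes called lower and 3.36% higher. Nothing is read from single calls. Bipolar markers had 4 of 15 called lower, with TRPM1, the cation channel of ON bipolar cells, at 848 and 944 and then 462 and 557 CPM (−0.83 ± 0.17, adjusted p = 0.0473, vehicle 0.09, difference from vehicle not passing at adjusted p = 0.148), amacrine markers 1 of 13, horizontal markers 1 of 7, ganglion cell markers 1 of 10 and cone markers 0 of 9. The medians were −0.29, −0.66, −1.00, −0.44 and −0.19, beside 0.02, −0.06, −0.08, 0.08 and 0.15 in vehicle, and 12 of 13 amacrine ratios were negative. The bipolar calls rested on the right eye of AAV week 2, with 0 called without it or with left eyes only, and 6 without the left eye of AAV week 2. The bipolar median without the barcodes of the 7 genes was −0.21, with 0 called. In barcodes of at most 0.5% mitochondrial UMIs it was −0.30, with 1 called. Without animal 7248 the amacrine and ganglion cell medians were −0.83 and −0.60. Rod markers went the other way, with 2 of 13 called higher and a median of 0.75 (vehicle −0.06), and 1 called without the right eye of AAV week 2. Without animal 7248 the rod median was 0.87. NRL, the transcription factor that specifies rods, was at 42.5 and 27.7 CPM and then at 93.0 and 112 CPM (1.58 ± 0.18, adjusted p = 0.0126, vehicle −0.13), against 45.3 to 51.8 CPM in vehicle. Summed rod markers were at 5586 and 5285 CPM at AAV week 2, 7249 and 7843 at AAV week 4 and 6072 to 7448 in vehicle, so AAV week 2 lay below vehicle and AAV week 4 within or above its range. Since values are shares of a retina's UMIs, a fall in some cell types and a rise in others cannot be told apart from a change in their proportions.

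Other pathway lists had some of their genes called, beside 3.36% of all genes called higher and 2.63% lower. The difference from vehicle passed for 4 of 28 NF-kB, 3 of 23 complement and 0 of 25 p53 genes, beside 0.908% of all genes in the positive direction. Without the barcodes of the 7 genes, the calls described next fell to 3 of 28 in the NF-kB list (median 0.59), 4 of 23 in the complement list (0.02), 2 of 25 among p53 targets (0.26), 1 of 24 in the interferon-gamma list (0.38) and 0 among cell division (0.55), leukocyte adhesion (0.32) and cell death genes (0.20). Of 28 NF-kB and TNF response genes 11 were called higher and 0 lower (median 0.98), led by SOCS3, a feedback inhibitor of cytokine signalling, at 0.0779 and 0.0696 and then 1.54 and 0.864 CPM. Of 23 complement genes 7 were called higher and 0 lower (median 0.23), the C1q genes and VSIG4 leading. C3, the central component, was at 7.37 and 9.04 CPM and then at 21.3 and 6.66 CPM, so that the groups overlapped and the test did not pass (0.73 ± 0.59, adjusted p = 0.471, vehicle 0.21). Of 25 p53 targets 3 were called higher and 1 lower (median 0.35, and 0.30 without animal 7248). CDKN1A, a cell cycle inhibitor, persisted, at 3.36 and 3.50 CPM and then 8.55 and 4.61 CPM, against 0.0288 to 0.0945 in vehicle.

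Cell division genes had 6 of 14 called higher (median 1.07), with TOP2A at 0.481 and 0.232 and then 2.54 and 3.56 CPM, and 76.7% of its AAV week 4 UMIs in barcodes of the 7 genes. Leukocyte adhesion genes had 5 of 13 called higher, ICAM1 from 0.326 and 0.377 to 6.54 and 3.10 CPM (median 0.98). Cell death genes had 2 of 15 called higher, NLRP3 and FASLG (median 0.69, and 0.77 without animal 7249). SOCS3, TOP2A, ICAM1 and FASLG did not pass the difference from vehicle (adjusted p = 0.114 to 0.142). Gliosis and acute phase genes had 3 of 22 called higher and 1 lower, with medians of 0.10 and 0.46 without animal 7248 or 7249. The interferon-gamma list had 5 of 25 called higher, and 9 without the right eye of AAV week 2. Neuronal injury genes had 1 of 15 called in each direction, astrocyte markers 1 of 5 lower and vascular markers 1 of 11 higher, single calls from which nothing is read beside the 3.36% and 2.63% of all genes called higher and lower.

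Glucocorticoid-response genes, given that all animals received a steroid, had 2 of 10 called lower and 0 higher (median −0.08), beside 2.63% and 3.36% of all genes. ZBTB16 was at 67.2 and 76.5 CPM and then at 37.2 and 30.1 CPM (−1.11 ± 0.18, adjusted p = 0.0296, vehicle 0.04), against 46.2 to 59.5 in vehicle, and TSC22D3, which encodes GILZ, was at 0.807 and 0.591 and then 1.08 and 0.931 CPM (adjusted p = 0.252). Clock genes had 4 of 14 called lower (median −0.57), CRY2 at 124 and 126 and then 72.2 and 61.0 CPM. Both counts rested in part on the right eye of AAV week 2, without which 1 glucocorticoid-response and 2 clock genes were called. The clock median was −0.62 without animal 7248 and −0.40 without 7249. The glucocorticoid-response and clock medians without the barcodes of the 7 genes were −0.24 and −0.47, with 0 called in both lists. In barcodes of at most 0.5% mitochondrial UMIs 2 genes of each list were called lower. For ZBTB16 and CRY2 the difference from vehicle did not pass (adjusted p = 0.122 and 0.0944). The hour at which each animal was killed relative to its last dose is not in the labels.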

How the data were processed

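Nuclei of flash-frozen retinas were sorted on DAPI and sequenced with a 10x 3′ kit. Per the labels and the study's methods, the authors aligned the reads with Cell Ranger 8.0.0 to Sscrofa11.1 with EGFP added, and deposited raw UMI counts per gene and barcode, as filtered barcodes from 4 lanes per retina, with no normalization. The files list 35683 genes, 18049 of them by identifier only, and the smallest barcode held 500 UMIs.

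Counts were summed over all barcodes of a retina, without clustering or a doublet filter, and then per animal, which made both eyes of a week 2 animal 1 library. edgeR 4.0.16 (R 4.3.3) fitted the 6 animals with 4 group means, TMM scaling, its default filter on low counts and the robust quasi-likelihood test, with Benjamini-Hochberg adjustment over the 28080 genes tested. Every adjusted p quoted comes from this fit or, where named, from an alternative. The error after ± (SE) was derived from the test, as the absolute log2 ratio divided by the square root of its F statistic. The 2 residual degrees of freedom came from the week 4 pairs. With a week 4 animal left out, only the pair of the other treatment gave the spread. CPM are UMIs per 1000000 UMIs of a retina. Intervals and floors (3 counts over a group) cover counting error only.

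Genes were named by rule: EGFP, the 10 of each class and of other lower genes with the largest ratio (persisted: the largest summed ratio to vehicle), the 4 of each of 32 lists with the largest ratio, all with at least 100 UMIs, cell type markers, and proteins the study measured. Others are said to be chosen after their values were seen. The members, lists and tests were chosen with earlier results of these data known. Alternatives were DESeq2 1.42.0 and its size factors, scaling by total UMIs, no filter, the 8 retinas as libraries, left eyes, barcode filters, thinning and leaving out each retina. Scripts were tested on simulated data. Coordinates and upstream windows are from RefSeq for Sscrofa11.1, with windows for 13412 of 14964 tested genes that have a symbol. Some marker genes are not reported here.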

Additional observations from a re-analysis of the deposited data

Results flagged for a closer look

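The week ratio differed between AAV and vehicle retinas, by edgeR's test of the difference itself, for 303 genes in all. Those named are given with the AAV log2 week ratio minus the vehicle log2 week ratio. With a difference of 5 or more there were ICOS 8.74, CXCL9 8.53, POU2AF1 8.49, GNLY 7.63, CD163 7.47, KRT35 7.37, IL18R1 6.47, SIT1 6.44, RUNX3 5.98, LCK 5.54, LAX1 5.52, IDO1 5.37, CD2 5.36, HLA-DRA 5.26, CYTIP 5.21, CD3E 5.07. Differences between 4 and 5 were found for GIMAP8 4.68, PTPRC 4.45, ADRA2B 4.39, IL7R 4.37, CD48 4.29, SLC11A1 4.25. Between 3 and 4 lay TYROBP 3.91, CCR7 3.90, IKZF1 3.89, CD8A 3.86, VSIG4 3.77, CIITA 3.76, C1QA 3.76, PADI1 3.72, CD53 3.67, SLA-DQB1 3.48, NLRP3 3.43, CD74 3.37, CENPF 3.20, TLR2 3.15, ITGB2 3.14, C1QB 3.09, CEBPD 3.06. The remaining positive differences were TNIP3 2.91, SAMD9 2.77, HTR1F 2.65, A2M 2.58, NRL 1.70. Negative differences were found for GAPDH −1.14, PNPT1 −1.23, AGRN −1.64, ABCA8 −2.50, CATSPERB −2.61, AGT −2.80, C1QTNF3 −3.00, PRELP −3.08, RGR −3.68. Without the barcodes of the 7 leukocyte genes 0 genes passed this test, with 4481 at an unadjusted p under 0.05, against 5312 with all barcodes. Each arm of the difference rests on 1 animal at week 2.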

How the results depend on the processing

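Each value rests on 3 animals a treatment, with 1 at week 2, and genes counted in a few UMIs at week 2 have ratios that depend on the fit. The AAV week ratio called 1683 genes. That count became 3771 with DESeq2's Wald test, 9746 with the 8 retinas as libraries, 380 without barcodes of 8 leukocyte genes and 272 without those of 7, an alternative chosen after seeing the data. In the same order, the difference from vehicle called 1763, 6173, 0 and 0 genes against 303, and 889, 2629, 0 and 0 genes appeared against 217. In that order 83, 94, 0 and 0 genes rose further against 35, with 23 in barcodes of at most 0.5% mitochondrial UMIs, and 39, 92, 0 and 0 faded against 3, with 6 without the filter on low counts and 0 with left eyes only. Persisted genes numbered 161 with the 8 retinas as libraries against 94. Between the vehicle groups DESeq2 called 27 genes and the fit of 8 retinas 8, against 0. The last fit treats the eyes of 1 animal as independent, and removing barcodes leaves fewer UMIs of leukocyte genes. The cause of the other shifts was not tested.

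Leaving out 1 retina at a time gave 1297 to 4006 genes for the AAV ratio, 0 to 3 for vehicle, 142 to 1502 for the difference, 110 to 704 that appeared, 19 to 58 that rose further, 0 to 17 that faded and 78 to 121 that persisted. Fits without a week 4 animal took the spread between animals from the other treatment's pair alone. Their counts are not comparable with the others. P2RY12 changed sign, from 0.81 to −0.12 without barcodes of 8 and to −0.11 without those of 7 leukocyte genes. MX2 and CGAS changed sign too without barcodes of the 7 genes, from 0.06 to −0.79 and from 0.72 to −0.74. Over all named genes, the counts above and all alternatives, 3140 values were classed as the same, 226 lost the call and 134 gained it. Being classed as the same does not mean that every sign was kept. No paired analysis was possible because the replicate numbers name eyes of 1 animal at week 2 and different animals at week 4.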
